A study of Mus musculus with 26 samples.

Results

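The 10 genes described here, Ybx2, Ybx3, Dazl, Boll, Cpeb2, Papolb, Pabpc1, Eif4g3, Tarbp2 and Ddx25, encode proteins of germ cells that bind mRNA or control its use in translation. They were taken by name, out of 24682 gene symbols, from RNA sequencing counts of mouse testis, and each of the 10 passed the filter on low counts in every comparison. C57BL/6 mice at postnatal day 21 gave whole testes in 3 sets, each with its own wild type: a knockout of Nkapl, a knockout of Sox30, and mice homozygous for an Nkapl allele named TGdel (the series title gives a frameshift, M349fs). Round spermatids and pachytene spermatocytes were sorted from Nkapl knockout and wild-type mice, with 2 libraries in each of the 4 groups. The labels of the sorted cells give 21 days and no strain. How the knockouts were made and how the cells were sorted is not stated in these sources.

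Libraries were grouped by the sample code in the heading of each count column, because headings and file records did not match. In 15 of 18 testis files the heading named another sample than the record, and each testis set held 1 pair of identical columns, which was counted once. This left 23 libraries: 2 Nkapl knockout against 3 wild-type testes, 2 Sox30 knockout against 3 wild-type testes, 3 TGdel against 2 wild-type testes, and 8 sorted libraries. For 4 testis libraries (Nkapl wild type 3, Sox30 wild type 3, TGdel 3 and wild type 2 of the TGdel set) the record gives the other genotype of the same set. The series describes biological replicates, but no label ties a library to an animal, so the p-values measure the spread between these libraries.

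Transcription ceases before a spermatid has completed its change of shape, so much of sperm formation runs on mRNA that was made earlier, packed into ribonucleoprotein particles and translated later. YBX2 (MSY2) and YBX3 (MSY4) are Y-box proteins that bind and store such mRNA. DAZL and BOLL belong to the DAZ family of translation activators, DAZL acting from early germ cells on and BOLL in meiotic and later cells. CPEB2 binds cytoplasmic polyadenylation elements, PAPOLB is the testis-specific cytoplasmic poly(A) polymerase that spermatids need, and PABPC1 coats poly(A) tails. EIF4G3 is the initiation scaffold that spermatocytes need to leave meiotic prophase. TARBP2 binds double-stranded RNA and is needed for the translation of stored protamine mRNA, and DDX25 (GRTH) is a helicase that carries mRNA to the cytoplasm and to polysomes. The values below are mRNA levels and hold no measure of translation.

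RefSeq promoter windows (GRCm38.p6) were found for 8 of the 10 genes, without Pabpc1 and Cpeb2. The 250 bases upstream of the start are shown for Papolb and Ybx3, whose mRNA fell furthest in Nkapl knockout testis, and for Dazl, whose mRNA rose there. They lie on the minus strand at chr5:142530077-142530326, chr6:131388451-131388700 and chr17:50293621-50293870, and capitals mark CG dinucleotides.
Papolb: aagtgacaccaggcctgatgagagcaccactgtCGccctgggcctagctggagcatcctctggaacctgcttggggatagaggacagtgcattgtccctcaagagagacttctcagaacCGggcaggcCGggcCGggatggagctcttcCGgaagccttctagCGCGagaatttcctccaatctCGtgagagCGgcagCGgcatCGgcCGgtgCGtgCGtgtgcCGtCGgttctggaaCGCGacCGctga
Ybx3: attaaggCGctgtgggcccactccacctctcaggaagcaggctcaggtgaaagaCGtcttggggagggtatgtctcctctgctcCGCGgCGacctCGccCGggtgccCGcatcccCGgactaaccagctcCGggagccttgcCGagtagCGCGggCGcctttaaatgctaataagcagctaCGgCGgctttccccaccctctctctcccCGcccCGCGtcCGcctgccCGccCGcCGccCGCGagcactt
Dazl: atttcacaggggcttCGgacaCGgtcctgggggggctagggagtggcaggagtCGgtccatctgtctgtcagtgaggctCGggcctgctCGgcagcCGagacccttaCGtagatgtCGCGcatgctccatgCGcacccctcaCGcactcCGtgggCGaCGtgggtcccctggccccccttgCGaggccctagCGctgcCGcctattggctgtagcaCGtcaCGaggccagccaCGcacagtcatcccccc
These stretches, in the order printed, hold 19, 25 and 20 CG dinucleotides, at 62%, 67.2% and 67.2% G and C bases, against medians of 6 and 52.4% over the same stretch of 32851 windows. Motifs were searched on both strands of windows of 300 bases. The SOX core ACAAT was found in 1 of the 8 genes, Papolb, at position -160 on the opposite strand, and in 31% of all windows. The MYB core AACTG was found in 1, Boll, and in 44.8% of all windows. The cAMP response element TGACGTCA and the palindromic NRF1 motif were found in 0 of the 8, against 1.79% and 0.971% of all windows. A match is a description of the letters and not evidence that a protein binds.

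By GENCODE M21 (GRCm38), the 10 genes are protein-coding and range from 1 exon in Papolb to a transcript of 36 exons in Eif4g3. Papolb covers 4239 bp of chromosome 5 (142525838 to 142530076, minus strand) within the span of Radil on the same strand, and shares 0 exonic bases with it. Cpeb2, also on chromosome 5 (43233170 to 43289724, plus strand), shares 137 exonic bases with the antisense gene Gm7854, which reached at most 1.61 CPM (counts scaled to a shared library size) in any library. Eif4g3 spans 215487 bp of chromosome 4 (137993022 to 138208508, plus strand), and an antisense gene within it, 1700095J12Rik, shares 0 exonic bases with it. Because the strand setting of the counting is not given, reads of antisense partners cannot be told apart from reads of these genes where exons overlap.

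Total counts ranged from 16469667 to 40010106 per library. Nkapl measured 60.8 and 57.8 CPM in Nkapl knockout testes and 74.9, 79.5 and 79.9 CPM in their wild type, so the transcript was lower but still counted (log2 fold change -0.40 ± 0.049 SE, adjusted p = 2.96e-06 by edgeR's quasi-likelihood test with Benjamini-Hochberg adjustment, as for each adjusted p below). Nkapl fell to 24.6 and 23.6 CPM in knockout spermatids, against 88.4 and 90.3 CPM in wild-type spermatids. In spermatocytes Nkapl was higher in the libraries labelled knockout, at 127 and 125 CPM, than in those labelled wild type, at 90.1 and 86.1 CPM. How the knockout was made is not stated, so this level cannot decide whether the labels are right. These libraries are named by their label throughout. Sox30 measured 44.7 and 61.5 CPM in Sox30 knockout testes and 77.6, 86.2 and 72.4 CPM in their wild type (-0.57 ± 0.153 SE, adjusted p = 0.17). Nkapl measured 107, 118 and 126 CPM in TGdel testes and 101 and 103 CPM in their wild type, which is no check of an allele described as a frameshift.

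In Nkapl knockout testis most of the 10 genes were lower. Of these, 8 fell and 1 rose (edgeR quasi-likelihood test, Benjamini-Hochberg adjusted p under 0.05 over 16937 genes), where 43.9% of all genes tested passed, 26.1% lower and 17.8% higher. The largest fall was in the poly(A) polymerase gene Papolb, the smallest in the storage protein gene Ybx2, and the gene that rose was Dazl. The median log2 fold change of the 10 was -0.27, against 0.01 over all genes tested.

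Papolb measured 227 and 205 CPM in the knockout testes, against 335, 327 and 338 CPM in the wild type, a 0.648-fold level (log2 -0.63 ± 0.0419 SE, adjusted p = 1.15e-09). The other genes acting on or near the poly(A) tail changed less. Cpeb2 measured 251 and 246 CPM in knockout and 288, 288 and 297 CPM in wild type (-0.23 ± 0.0353, adjusted p = 4.4e-05). Pabpc1, the most abundant of the 10, measured 2946 and 2906 CPM in knockout and 3421, 3351 and 3366 CPM in wild type (-0.21 ± 0.031, adjusted p = 2.77e-05). For each of these 3 genes both knockout libraries lay below all wild-type libraries.

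The Y-box genes fell by unequal amounts. Ybx3 measured 828 and 804 CPM in knockout testes and 1132, 1110 and 1111 CPM in wild type (-0.45 ± 0.0329, adjusted p = 3.16e-09). Ybx2 measured 994 and 1028 CPM in knockout and 1142, 1137 and 1114 CPM in wild type (-0.16 ± 0.0328, adjusted p = 0.000617). The gap between the groups was thus wider for Ybx3 than for Ybx2, and no library of one group entered the other's range.

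The helicase gene Ddx25 measured 275 and 262 CPM in knockout and 351, 354 and 347 CPM in wild type (-0.39 ± 0.0358, adjusted p = 8.09e-08). The initiation factor gene Eif4g3 measured 492 and 507 CPM in knockout and 630, 643 and 636 CPM in wild type (-0.35 ± 0.0334, adjusted p = 1.25e-07). Tarbp2 measured 108 and 99.2 CPM in knockout and 133, 129 and 125 CPM in wild type (-0.32 ± 0.0452, adjusted p = 1.57e-05). These 3 genes of different protein classes fell to a like extent, between Papolb and Pabpc1.

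The DAZ family genes did not share a direction that passed the test. Dazl rose to 400 and 360 CPM in knockout testes, against 327, 332 and 336 CPM in wild type (0.19 ± 0.0409, adjusted p = 0.000826). Boll measured 184 and 188 CPM in knockout and 199, 194 and 197 CPM in wild type (-0.08 ± 0.0362, adjusted p = 0.0855), with both knockout libraries below the wild type but a difference under the threshold of the test. In all, 9 of the 10 genes had every knockout library below every wild-type library, as did 32.9% of genes tested, and 1 had every knockout library above, as did 29.5%.

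**Figure D1:**
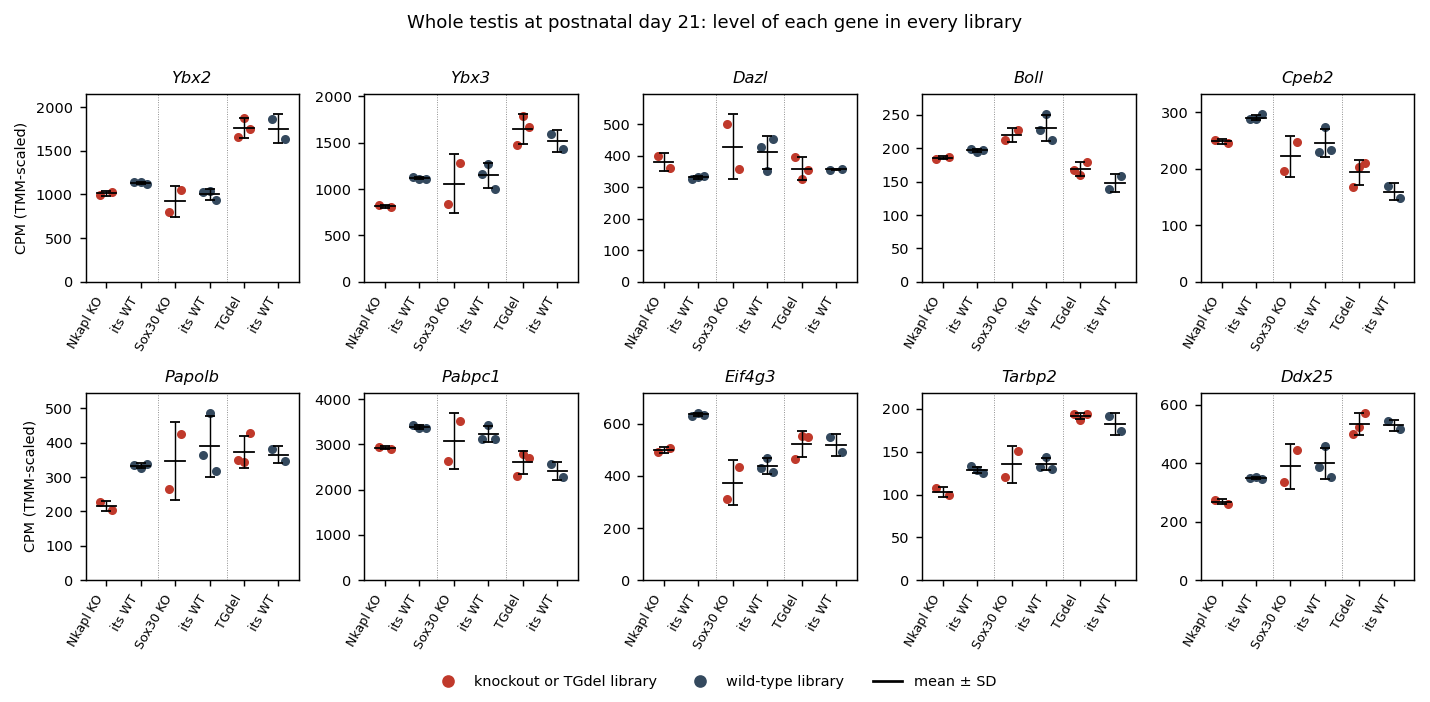
Level of each of the 10 genes (CPM after TMM scaling, vertical axis from 0) in every whole-testis library, with 1 point per library and bars for mean ± SD, mutant groups left of their wild type. In the Nkapl set the 2 knockout points of Papolb lie at 227 and 205 CPM, below the wild-type points at 335, 327 and 338 CPM, while in the Sox30 and TGdel sets the points of both groups overlap for all 10 genes except Boll in the TGdel set.

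The make-up of these testes also differed by genotype. Marker sums, here and below, are CPM by library totals with no TMM factors. The 15 round spermatid markers summed to 77.7 to 79.9 CPM in knockout testes and 228 to 283 CPM in wild type, with Prm1, Prm2 and Tnp2 at 0 counts in knockout, and 13 of the 13 tested fell. The 14 pachytene markers summed to 5239 to 5326 CPM in knockout and 5793 to 5898 CPM in wild type. The 9 spermatogonial markers summed to 397 to 411 CPM and the 11 Sertoli markers to 1967 to 2070 CPM in knockout, against 313 to 337 CPM and 1574 to 1627 CPM in wild type. The ribosomal RNA gene Rn45s took 5.29% to 5.53% of counts in knockout and 3.96% to 3.97% in wild type. The part of these differences in the falls and in the rise of Dazl was not tested, and in whole testis fewer cells of a type and less RNA per cell cannot be told apart. The 8 falls and 1 rise held without the library whose record gives the other genotype. In 1 fit of all testis libraries, which shares the spread between sets, 2 of the 10 fell (Papolb -0.60, Tarbp2 -0.29) and 0 rose. There 2518 of 17647 genes tested fell and 833 rose. Grouped by file record instead, 0 of the 10 passed edgeR's test, with 0 genes called in all and 415 at an unadjusted p under 0.05.

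In Sox30 knockout testis 0 of the 10 genes passed the test, where 2.42% of 17816 genes passed, 1.92% lower and 0.505% higher. None had an unadjusted p under 0.05 by edgeR, and DESeq2 and limma-voom also called 0. The lowest unadjusted p was that of Eif4g3 (0.175). For each of the 10 genes the 2 knockout libraries lay further apart than the means of the groups.

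Papolb measured 265 and 426 CPM in Sox30 knockout testes and 363, 487 and 316 CPM in wild type (-0.17 ± 0.244 SE). Ybx3 measured 835 and 1284 CPM in knockout and 1162, 1273 and 1005 CPM in wild type (-0.11 ± 0.198). Eif4g3 measured 313 and 434 CPM in knockout and 429, 471 and 414 CPM in wild type (-0.23 ± 0.152, adjusted p = 0.967). In each case knockout 1 was the lowest of the 5 libraries and knockout 2 lay inside the wild-type range or, for Ybx3, above it.

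The same knockout library was low for most of the others. Pabpc1 measured 2635 and 3517 CPM in knockout and 3123, 3432 and 3117 CPM in wild type. Ddx25 measured 336 and 445 CPM in knockout and 388, 459 and 354 CPM in wild type. Dazl ran the other way, with 501 and 357 CPM in knockout and 428, 350 and 453 CPM in wild type, so knockout 1 was the highest library. Without knockout 1 the log2 fold change of Papolb was 0.13, and without knockout 2 it was -0.55, with neither passing.

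The remaining genes, Ybx2, Boll, Cpeb2 and Tarbp2, had log2 fold changes from -0.14 to 0.00. Ybx2 measured 797 and 1049 CPM in knockout and 1023, 1043 and 933 CPM in wild type. Cpeb2 measured 196 and 248 CPM in knockout and 230, 275 and 233 CPM in wild type. Tarbp2 measured 120 and 151 CPM in knockout and 133, 144 and 130 CPM in wild type, and Boll 212 and 227 CPM and 227, 251 and 212 CPM. The groups overlapped for all 10 genes, where 11.1% of genes tested had every knockout library below and 9.85% every one above the wild type. Round spermatid markers summed to 67.8 to 108 CPM in knockout and 193 to 419 CPM in wild type, and 8 of 15 fell. Markers of epididymis, an adjoining organ, summed to 54.3 to 84.3 CPM in knockout and 7.79 to 14.8 CPM in wild type. Their part in these values was not tested.

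In TGdel testis 0 of the 10 genes passed either, where 1.25% of 16011 genes passed, 1.05% lower and 0.2% higher. By edgeR's quasi-likelihood test 1 of the 10, Cpeb2, had an unadjusted p under 0.05, and DESeq2 and limma-voom called 0. Cpeb2 measured 169, 203 and 210 CPM in TGdel testes and 171 and 149 CPM in wild type (0.28 ± 0.111 SE, adjusted p = 0.278). Boll measured 168, 160 and 180 CPM in TGdel and 139 and 158 CPM in wild type (0.19 ± 0.0885, adjusted p = 0.361). Boll was the 1 gene whose groups did not overlap, all TGdel libraries being higher, as were 16.1% of genes tested.

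The genes that fell furthest in Nkapl knockout testis showed no such gap here. Papolb measured 350, 345 and 427 CPM in TGdel and 383 and 348 CPM in wild type (0.03 ± 0.11). Ybx3 measured 1475, 1792 and 1671 CPM in TGdel and 1598 and 1433 CPM in wild type (0.12 ± 0.1). Both genes had a wild-type library inside the TGdel range. Ybx2, Dazl, Eif4g3 and Ddx25 each had a log2 fold change of 0.01, and Tarbp2 and Pabpc1 of 0.07 and 0.10. Dazl measured 397, 326 and 355 CPM in TGdel and 356 and 357 CPM in wild type, and Eif4g3 465, 554 and 549 CPM and 550 and 490 CPM. TGdel 1 was the lowest of the 3 TGdel libraries for Ybx2, Ybx3, Pabpc1, Cpeb2, Eif4g3 and Ddx25 and the highest for Dazl. Round spermatid markers summed to 103 to 180 CPM in TGdel and 207 to 277 CPM in wild type, with 0 of 13 called.

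The difference between mutants was tested directly in joint fits. The Nkapl knockout effect minus the TGdel effect passed below 0 for 4 of the 10 genes, where 6.96% of 16930 genes did. It passed above 0 for none of the 10, where 4.83% did (11.8% in all). It was -0.56 ± 0.126 SE for Papolb (adjusted p = 0.0167), -0.47 ± 0.109 for Ybx3 (0.0186), -0.41 ± 0.122 for Cpeb2 (0.0491) and -0.29 ± 0.0855 for Tarbp2 (0.0469). The remaining 6 ranged from -0.30 for Ddx25 (adjusted p = 0.0553) to 0.29 for Dazl (0.101). How many of the 10 passed changed with the libraries in the fit. Without TGdel 1 there were 7, where 3313 of 17034 genes were called. A fit without either Nkapl knockout library keeps 1 in that group, so only sizes are given. Over the fits that left out 1 library, the difference ranged from -0.73 to -0.49 for Papolb and from -0.67 to -0.45 for Ybx3. For Cpeb2 the range was -0.62 to -0.39, and for Tarbp2 -0.46 to -0.23. With the libraries whose record and heading give the same group, 0 passed.

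The Nkapl knockout effect minus the Sox30 knockout effect passed for 0 of the 10 genes, where 2.8% of 17867 genes passed, 2.64% below 0 and 0.168% above. By edgeR 0 of the 10 had an unadjusted p under 0.05, and the lowest was 0.0506 for Tarbp2 (-0.30 ± 0.137). Papolb had the largest difference, -0.44 ± 0.289. Over the fits that left out 1 library, this difference ranged from -0.76 to -0.04 for Papolb, from -0.62 to 0.03 for Ybx3 and from -0.48 to -0.12 for Tarbp2.

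**Figure D2:**
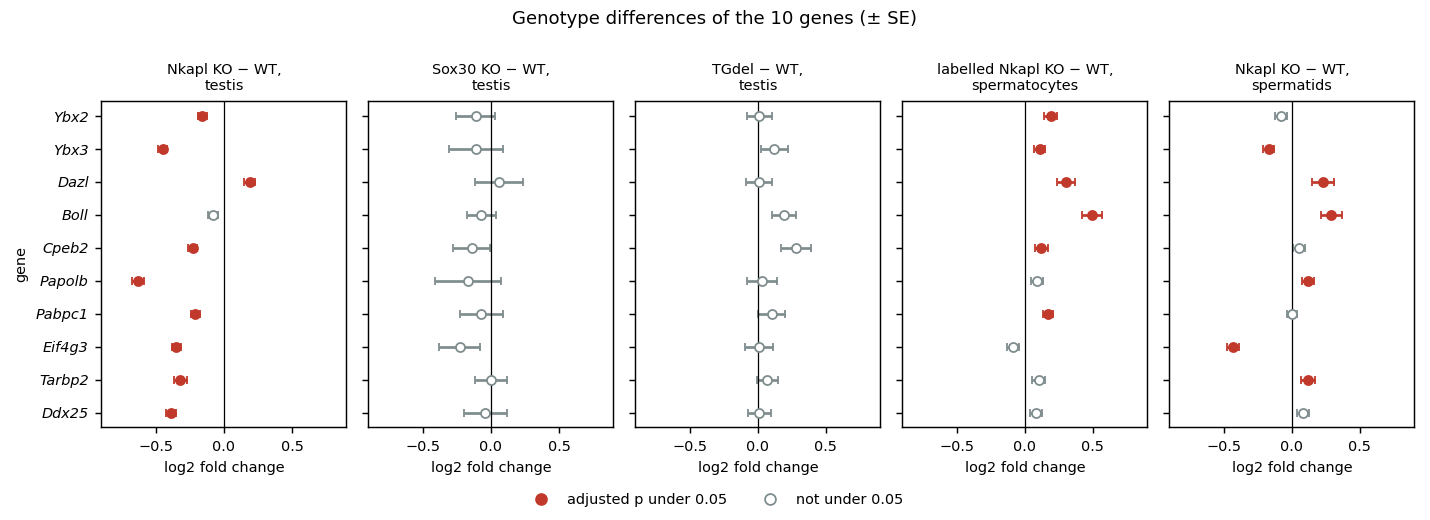
Log2 fold change of each gene (horizontal axis, point ± SE) in 5 genotype comparisons, mutant over wild type, with filled red points for adjusted p under 0.05. In Nkapl knockout testis 9 filled points run from -0.63 for Papolb to 0.19 for Dazl, the Sox30 and TGdel panels hold none, and Eif4g3 stands at -0.43 in spermatids.

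In sorted round spermatids 2 of the 10 genes were lower in Nkapl knockout (Eif4g3 and Ybx3), 4 were higher (Boll, Dazl, Papolb and Tarbp2) and 4 did not pass. The share that passed is that of the background, where 60% of 15805 genes passed, 31% lower and 29% higher. Eif4g3 had by far the smallest p. Papolb, which fell in knockout testis, was slightly higher in knockout spermatids.

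Eif4g3 measured 668 and 651 CPM in knockout spermatids and 899 and 879 CPM in wild-type spermatids, a 0.742-fold level (-0.43 ± 0.0447 SE, adjusted p = 1.7e-09). It passed in every alternative fit, at -0.32 when libraries were compared by their totals alone. Ybx3 measured 1728 and 1763 CPM in knockout and 2028 and 1887 CPM in wild type (-0.17 ± 0.0412, adjusted p = 0.00102). By library totals the difference of Ybx3 was -0.05 and no longer passed, with the median of all genes moving to 0.139 from 0.028 under that scaling.

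The DAZ family genes were both higher at low levels. Boll measured 111 and 106 CPM in knockout spermatids and 91.3 and 85.9 CPM in wild type (0.29 ± 0.0772, adjusted p = 0.00203). Dazl measured 38.3 and 40.3 CPM in knockout and 34 and 33.2 CPM in wild type (0.23 ± 0.079, adjusted p = 0.0144). Both genes had knockout above wild type in each library.

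Papolb measured 1163 and 1212 CPM in knockout spermatids and 1076 and 1103 CPM in wild type (0.12 ± 0.0455, adjusted p = 0.0196). Tarbp2 measured 211 and 214 CPM in knockout and 190 and 201 CPM in wild type (0.12 ± 0.0516, adjusted p = 0.0413). These small rises did not pass when any 1 library was left out, and without wild-type spermatid 2 none of the 4 rises passed. The other 4 genes did not pass. Ddx25 measured 892 and 866 CPM in knockout and 863 and 803 CPM in wild type, and Ybx2 1786 and 1766 CPM and 1939 and 1818 CPM. Pabpc1, at 4034 and 4209 CPM in knockout and 4121 and 4095 CPM in wild type, had a difference of 0.00 ± 0.0375. In all, 6 of the 10 had both knockout libraries above both wild-type ones and 3 below, where 40.5% and 39.3% of genes tested did.

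Markers of spermatids themselves differed far more. The 15 round spermatid markers summed to 3015 to 3039 CPM in knockout spermatids and 7487 to 7688 CPM in wild type, and all 15 fell. Macrophage markers summed to 38.3 to 40.2 CPM and Leydig markers to 21.7 to 22.7 CPM in knockout, against 16.8 to 17.5 CPM and 8.52 to 8.66 CPM in wild type. The Sertoli sum was also higher, at 37.4 to 38.6 CPM against 29.8 to 30.4 CPM, with 2 of 11 genes called higher and 0 lower. The peritubular myoid sum was lower, at 113.6 to 113.9 CPM in knockout and 242.5 to 246.8 CPM in wild type. Of 5 myoid genes tested 2 were called lower and 0 higher, with a median log2 of 0.08. The epididymal sum was lower too, but only 2 of its genes were tested, 1 called higher and 1 lower. Pachytene markers summed to 10010 to 10120 CPM in knockout and 8218 to 8524 CPM in wild type, with 8 of 14 called higher and 2 lower. That list did not separate the stages in wild type, where 6 were called higher in spermatids and 5 lower. Spermatogonial markers summed to 64.4 to 64.8 CPM in knockout and 43.2 to 44.8 CPM in wild type, with 5 of 9 called higher and 0 lower. The share of read lines assigned to no gene was 24.45% to 24.64% in knockout and 19.41% to 19.43% in wild type. The part of these differences in the changes of the 10 genes was not tested.

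In spermatocytes labelled knockout 6 of the 10 genes were higher and 0 lower, where 59.2% of 15805 genes passed, 33.6% higher and 25.7% lower. The largest rise was in Boll, followed by Dazl, and the other rises were under 0.20 on the log2 scale. The count depends on scaling: by library totals only Boll (0.39) and Dazl (0.20) were higher and Eif4g3 was lower (-0.19). Boll and Dazl passed in every alternative fit.

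Boll measured 148 and 144 CPM in spermatocytes labelled knockout and 118 and 90.7 CPM in those labelled wild type (0.49 ± 0.0733 SE, adjusted p = 1.58e-06). The wild-type libraries were themselves far apart, and leaving out single libraries gave 0.31 to 0.69. Dazl measured 66.9 and 75.3 CPM in labelled knockout and 61.1 and 54.5 CPM in wild type (0.30 ± 0.0672, adjusted p = 0.000348). Both genes were higher in the knockout-labelled libraries in each of the sorted cell types.

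Ybx2 measured 2214 and 2161 CPM in labelled knockout and 1803 and 2031 CPM in wild type (0.19 ± 0.0463, adjusted p = 0.000819). Pabpc1 measured 3688 and 3674 CPM in labelled knockout and 3321 and 3236 CPM in wild type (0.17 ± 0.0375, adjusted p = 0.000357). Cpeb2 and Ybx3 differed by 0.12 and 0.11 (adjusted p = 0.0309 and 0.0288). None of these 4 passed by library totals, where their differences were 0.09, 0.07, 0.02 and 0.01.

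The remaining 4 genes did not pass, among them Ddx25, at 706 and 717 CPM in labelled knockout and 663 and 688 CPM in wild type, and Tarbp2, at 244 and 242 CPM and 217 and 235 CPM. Eif4g3, which fell furthest of the 10 in knockout spermatids, measured 636 and 617 CPM in labelled knockout spermatocytes and 690 and 642 CPM in wild type (-0.09 ± 0.0446, adjusted p = 0.0911). Papolb measured 677 and 699 CPM in labelled knockout and 678 and 618 CPM in wild type (0.09 ± 0.0459). In all, 8 of the 10 had both labelled knockout libraries above and 1 below the wild type, where 43.7% and 34.2% of genes did. Round spermatid markers, which spermatocytes should largely lack, summed to 1235 to 1241 CPM in labelled knockout and 2988 to 3136 CPM in wild type, and Sertoli markers to 173 to 176 CPM and 264 to 279 CPM. Spermatogonial markers summed to 145 to 149 CPM in labelled knockout and 116 to 120.1 CPM in wild type, and read lines assigned to no gene made up 23.16% to 23.5% and 18.76% to 20%. Their part in these differences was not tested.

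**Figure D3:**
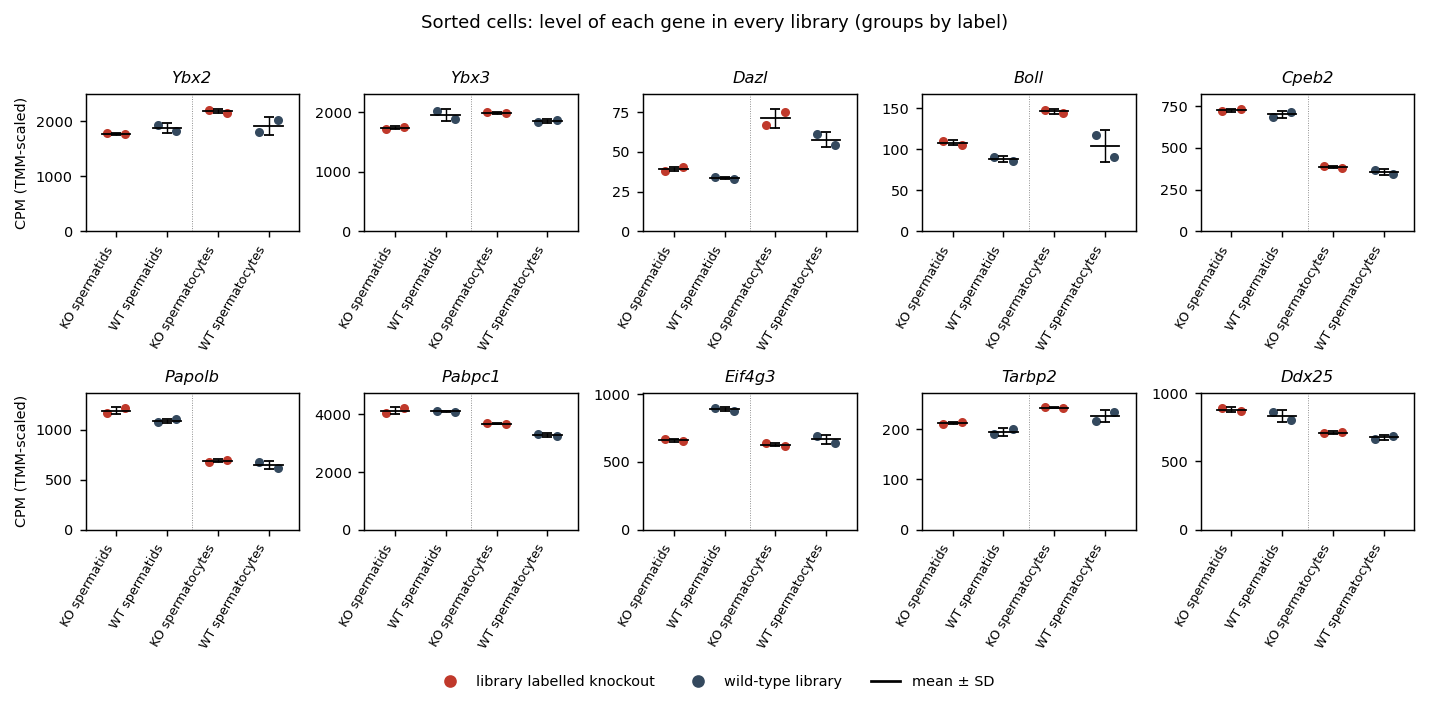
Level of each gene (CPM after TMM scaling, vertical axis from 0) in every sorted library, with 1 point per library and bars for mean ± SD, labelled knockout left of wild type and spermatids left of spermatocytes. The Eif4g3 points of knockout spermatids, at 668 and 651 CPM, lie below those of wild-type spermatids, at 899 and 879 CPM, and the spermatid points of Papolb and Cpeb2 lie above their spermatocyte points.

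Whether the knockout effect differed between the cell types was tested as a contrast. In that contrast 25.5% of 15805 genes passed, 16.4% below 0 and 9.02% above. The effect in spermatids minus that in spermatocytes passed below 0 for 4 of the 10 genes and above 0 for none. It was -0.34 ± 0.0631 SE for Eif4g3 (adjusted p = 0.000188), -0.27 ± 0.0656 for Ybx2 (0.00294), -0.27 ± 0.0582 for Ybx3 (0.000983) and -0.16 ± 0.0531 for Pabpc1 (0.0243). Of the 8 fits that left out 1 library, Eif4g3 passed in 8, Ybx3 in 7, Ybx2 in 6 and Pabpc1 in 2, with Pabpc1 between -0.19 and -0.08. Library totals moved the median of all genes to 0.181 from -0.028. On that scale 0 of the 10 passed below 0 and 3 above 0 (Papolb 0.25, Tarbp2 0.23, Ddx25 0.21). Under that scaling Eif4g3 was at -0.13 (adjusted p = 0.106) and Pabpc1 at 0.05. The contrast takes the spermatocytes by their labels, and Nkapl was higher in those labelled knockout, which cannot decide whether the labels are right.

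Between the wild-type cell types, 5 of the 10 genes were higher in spermatids than in spermatocytes and 3 lower. This count is close to the background, where 77.5% of genes passed, 41.1% higher and 36.4% lower, and what follows describes single genes. The rises were in Cpeb2, Papolb, Eif4g3, Pabpc1 and Ddx25, and the falls in Dazl, Boll and Tarbp2. By library totals, which put the median of all genes at -0.285 in place of 0.048, 2 were higher and 5 lower, and Ybx3, Pabpc1 and Ddx25 turned to -0.26, -0.01 and -0.03. By library totals, the round spermatid markers summed to 7487 to 7688 CPM in wild-type spermatids and 2988 to 3136 CPM in wild-type spermatocytes. On that scale the pachytene markers summed to 8218 to 8524 CPM in spermatids and at least 9813 CPM in spermatocytes. With TMM scaling 6 of the 14 pachytene markers were called higher in spermatids and 5 lower (median log2 0.06), so that list did not separate the stages. Each sort thus carried markers listed for the other stage.

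Cpeb2 measured 688 and 717 CPM in wild-type spermatids and 367 and 343 CPM in wild-type spermatocytes (0.98 ± 0.046 SE, adjusted p = 7.01e-18). Papolb measured 1076 and 1103 CPM in spermatids and 678 and 618 CPM in spermatocytes (0.75 ± 0.0459, adjusted p = 4.47e-15). Both encode proteins of cytoplasmic polyadenylation, and both were higher in spermatids by library totals too, at 0.65 and 0.42. Eif4g3 was higher by 0.42 ± 0.0445, Pabpc1 by 0.33 ± 0.0376 and Ddx25 by 0.30 ± 0.0446 with TMM scaling, and these 3 did not pass by library totals.

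Dazl measured 34 and 33.2 CPM in wild-type spermatids and 61.1 and 54.5 CPM in wild-type spermatocytes (-0.78 ± 0.0741, adjusted p = 9.43e-11). Boll measured 91.3 and 85.9 CPM in spermatids and 118 and 90.7 CPM in spermatocytes (-0.24 ± 0.0763, adjusted p = 0.0063), with overlapping libraries, and without wild-type spermatocyte 1 its difference was -0.03. Tarbp2 measured 190 and 201 CPM in spermatids and 217 and 235 CPM in spermatocytes (-0.21 ± 0.0511, adjusted p = 0.000491). Ybx2 and Ybx3, at -0.03 and 0.08, did not pass. In all, 6 genes had both spermatid libraries above both spermatocyte ones and 2 below, where 45.8% and 41.6% of genes tested did.

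In the libraries labelled knockout 4 genes were higher in spermatids and 5 lower, where 77% of genes passed, 37.7% higher and 39.3% lower. Cpeb2 (0.91 ± 0.046), Papolb (0.79 ± 0.0459) and Dazl (-0.85 ± 0.0718) had changes close to those in wild type. Ybx2 and Ybx3 were lower in knockout spermatids by -0.30 ± 0.0464 and -0.19 ± 0.0412, and Eif4g3, at 0.07 ± 0.0448, did not pass (adjusted p = 0.134). Those 3 are among the genes for which the contrast above found the cell type effect to differ by genotype label. The cell types did not overlap for any of the 10 genes, 5 with both spermatid libraries above and 5 below, where 43.1% and 45.6% of genes tested did.

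**Figure D4:**
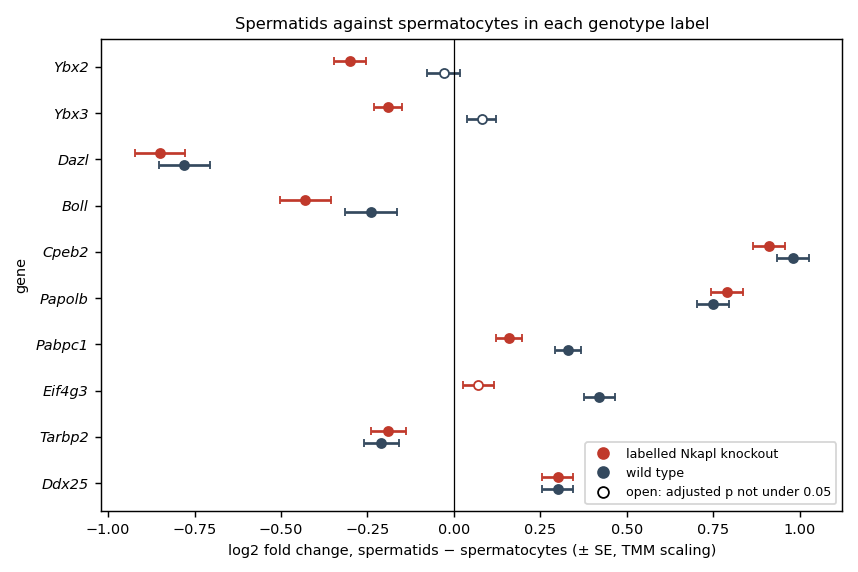
Log2 fold change of each gene in spermatids over spermatocytes (horizontal axis, point ± SE, TMM scaling), in libraries labelled Nkapl knockout (red) and wild type (dark), open points not passing. Cpeb2 and Papolb lie furthest right in both, at 0.91 and 0.79 in labelled knockout and 0.98 and 0.75 in wild type, Dazl lies furthest left, and the 2 points of Eif4g3 stand apart at 0.07 and 0.42.

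Per kilobase of the union of all annotated exons, the genes differed widely in level in wild-type libraries, on 1 scale for all 23 libraries. That length was 1885 bp for Ybx2, 6540 bp for Pabpc1 and 11063 bp for Eif4g3. It spans all annotated transcripts of a gene and can exceed the length of the mRNA in these cells. In round spermatids Ybx2 was highest at 1306 ± 63.6 CPM per kb (SD, n = 2), followed by Ybx3 at 834 ± 45.1 and Pabpc1 at 823 ± 6.23, which did not differ beyond their spread. Papolb stood at 337 ± 4.76, and Dazl was lowest at 11.5 ± 0.228 CPM per kb. In wild-type testis of the Nkapl set Ybx2 was again highest at 518 ± 7.01 CPM per kb (n = 3), followed by Pabpc1 at 446 ± 4.74, while Dazl, at 75 ± 0.985, came next after Ybx3 and Tarbp2 was lowest at 24.5 ± 0.73. By this measure genes of storage and poly(A) binding led in both, and the place of Dazl differed most. The order between genes depends on the length used, and no other length was tried.

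Over all 23 libraries on 1 scale, the order of the 10 groups followed sorted cells against testis for 9 of the 10 genes. For 8 genes each of the 6 testis groups lay below each of the 4 sorted ones, and for Dazl above. Dazl was lowest in wild-type spermatids (44 ± 0.869 CPM) and highest in Sox30 knockout testes (368 CPM). Papolb was lowest in Nkapl knockout testes (188 CPM), apart from the next group, their wild type (288 CPM), and highest in knockout spermatids (1587 CPM). Boll varied least and followed no such division, with 116 CPM in wild-type spermatids and 196 CPM in wild-type testes of the Sox30 set. Nkapl knockout testes were also the lowest of the 10 groups for Ybx3, Tarbp2 and Ddx25. Groups here come from separate sets, so these are descriptions of order and not tests.

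Across the 23 libraries, which share sets and sorts, Ybx3 correlated with Tarbp2 and Ddx25 and Pabpc1 with Cpeb2 at r = 0.98, each over log2(CPM + 1). Dazl ran against the 8 genes other than Boll, at r = -0.96 to -0.87, and had r = 0.51 with Boll. The genes most like Papolb were Tdrd7 (r = 0.997) and Gtf2a1l (0.996), a chromatoid body protein gene and a testis transcription factor gene. Those most like Ddx25 were Ppp3cc and Rnaseh2a (0.998 each), and those most like Dazl were Nr1d2 and Galnt1 (0.995 each). Boll had the least close neighbour, Slf1 (0.926). These values are dominated by the contrast of sorted cells with testis and say nothing of shared control.

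The difference between wild-type spermatids and spermatocytes can be set beside the testis changes as a description. Over the 10 genes the Pearson correlation of the spermatid-over-spermatocyte change with the Nkapl knockout testis change was -0.68, against -0.41 over 14942 genes. It was -0.75 for the Sox30 knockout, against -0.28 over 15315 genes, and 0.35 for TGdel, against -0.36 over 14533 genes. These values rest on 10 genes, which are not independent.

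Other genes of the same pathways were counted in lists. In Nkapl knockout testis 9 of 44 RNA-bound translational regulators fell and 14 rose, 12 of 46 genes of cap binding and initiation fell and 11 rose, and 15 of 51 poly(A) tail genes fell and 9 rose. Of 40 genes of double-stranded RNA binding and helicases, 9 fell and 19 rose. The medians of these 4 lists were 0.06, -0.01, 0.04 and 0.13 on the log2 scale, against 0.01 over all genes, of which 26.1% fell and 17.8% rose. The initiation list fell as often as all genes did.

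The called poly(A) tail genes with the smallest p were the poly(A) polymerase genes Fam46c and Fam46b and the gene Pabpc2. Fam46c measured 26.4 and 23 CPM in Nkapl knockout testes and 83.4, 78.4 and 83.4 CPM in wild type (-1.73 ± 0.0624 SE, adjusted p = 8.95e-13). Fam46b measured 11.6 and 11.6 CPM in knockout and 35.2, 33.8 and 35.6 CPM in wild type (-1.59 ± 0.0741). Pabpc2, which encodes a testis poly(A)-binding protein, measured 378 and 334 CPM in knockout and 601, 599 and 608 CPM in wild type (-0.76 ± 0.0434). In the other lists Adad1 (-0.69), Igf2bp3 (-0.66), Ddx20 (-0.56) and Eif3k (-0.45) fell, while Tnrc6c (0.38), of microRNA silencing, rose.

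Fam46b was also the 1 poly(A) tail gene called in TGdel testis, at 19.09, 21.3 and 21.3 CPM in TGdel and 48.8 and 37.8 CPM in wild type (-1.07 ± 0.125, adjusted p = 0.0107). In Sox30 knockout testis the 1 called was Cpsf4l, at 0.321 and 0.335 CPM in knockout and 2.73, 3.57 and 1.28 CPM in wild type (-2.94 ± 0.513, adjusted p = 0.0338). No gene of the regulator, initiation or helicase lists was called in either of these sets. Fam46b was lower in knockout spermatids (-0.81 ± 0.0604) and in spermatocytes labelled knockout (-1.10 ± 0.0653) as well.

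The mRNAs known for delayed translation in spermatids, the cargo that several of the 10 proteins store or activate, moved most. In Nkapl knockout testis 19 of 20 fell, with a median of -3.50 when the 5 genes at 0 in knockout were put at a floor of 3 counts over the group. In Sox30 knockout testis 7 of 22 fell and in TGdel testis 0 of 20, with medians of -4.20 and -1.28 by the same rule. In knockout spermatids 20 of 22 fell and 1 rose, and in spermatocytes labelled knockout 19 fell and 2 rose. Of all genes tested, 26.1% fell in Nkapl knockout testis, 1.92% in Sox30 knockout testis and 1.05% in TGdel testis. The shares were 31% lower and 29% higher in knockout spermatids, and 25.7% lower and 33.6% higher in spermatocytes labelled knockout. Prm1, the protamine gene, measured 72.6 and 76.6 CPM in knockout spermatids and 1115 and 1055 CPM in wild type (-3.86 ± 0.0598). All 22 of the list were higher in wild-type spermatids than in wild-type spermatocytes, where 41.1% of all genes were called higher. The list overlaps the round spermatid markers given above and, in Pgk2, the pachytene markers.

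In knockout spermatids the same lists were counted against 31% of all genes lower and 29% higher. Of translational regulators 12 of 44 fell and 13 rose, of initiation genes 11 of 45 fell and 8 rose, of poly(A) tail genes 16 of 51 fell and 23 rose, and of helicase genes 9 of 40 fell and 17 rose. Beside Eif4g3, its relative Eif4g1 measured 233 and 236 CPM in knockout spermatids and 404 and 391.5 CPM in wild type (-0.76 ± 0.0498, adjusted p = 7.15e-14). Cpeb3, a relative of Cpeb2, measured 11.1 and 10.2 CPM in knockout spermatids and 62.5 and 60.8 CPM in wild type (-2.53 ± 0.0873, adjusted p = 2.47e-20). The initiation scaffold genes were thus both lower in these cells, and of the CPEB pair Cpeb3 fell while Cpeb2, at 720 and 731 CPM in knockout and 688 and 717 CPM in wild type, did not pass.

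In spermatocytes labelled knockout 27 of 44 regulators, 24 of 45 initiation genes, 25 of 51 poly(A) tail genes and 25 of 40 helicase genes were higher, against 6, 9, 7 and 7 lower, where 33.6% of all genes were higher and 25.7% lower. These counts depend on scaling, since by library totals 4073 of all genes were higher and 4816 lower. Cpeb3 was an exception at 4.8 and 4.24 CPM in labelled knockout and 20.9 and 23.5 CPM in wild type (-2.30 ± 0.113). Of 6 mRNAs known to be bound by DAZL, 5 were higher and 0 lower in each sorted cell type, where 33.6% of all genes were higher in spermatocytes and 29% in spermatids, among them Sycp3 by 0.43 ± 0.0525 in spermatocytes and 0.72 ± 0.0636 in spermatids. Sycp3 is also a pachytene marker. Of the 14 pachytene markers 10 were higher and 4 lower in spermatocytes, and 8 were higher and 2 lower in spermatids. In Nkapl knockout testis, where Dazl rose, 1 of these 6 rose (Tex19.1) and 1 fell (Ddx4).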

How the data were processed

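RNA was measured by sequencing of whole testis and of sorted spermatocytes and spermatids. The deposited values are raw read counts per gene symbol, as whole numbers with no scaling by the authors. Libraries were TruSeq stranded total RNA libraries per the labels' protocols, and the submitters' processing notes name HISAT2 2.1.0, HTSeq, DESeq2 and the build mm10. Neither the strand setting nor the annotation used in counting is stated in these sources. HTSeq's summary lines, 23.16% to 24.64% of the lines' counts in the sorted libraries labelled knockout and 18.76% to 20% in wild type, were left out. Precision was set by library depth (16469667 to 40010106 counts) and by 2 or 3 libraries per group.

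Genes were filtered with edgeR's filterByExpr by group, scaled by TMM and tested two-sided with edgeR 4.0.16 (R 4.3.3) by the quasi-likelihood test, with Benjamini-Hochberg adjustment over all genes tested and a threshold of 0.05. Testis sets were fitted separately and the 8 sorted libraries in 1 model, and differences of effects were contrasts in joint fits. Standard errors were derived from the fold change and its F statistic. CPM of single genes are counts scaled to a shared library size with TMM factors within a set. Marker sums are CPM by library totals with no TMM factors. Levels per kilobase, and levels and correlations over all 23 libraries, use TMM factors of the 23 libraries together. The fitting code was tested on simulated data. Alternatives were other scalings, no filter, DESeq2 1.42.0, limma-voom 3.58.1, other groupings, each library left out, and a replicate block. Comparison by library totals was added after the data were seen. Promoter windows came from RefSeq and positions from GENCODE M21.

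The design had assumed that headings name the libraries, and identical columns were counted once. Distinct replicates differed beyond counting noise (chi-square per degree of freedom 1.403 to 41.68). The 10 genes and the lists of related genes and markers were chosen with earlier results of these data known, so their counts are descriptions. Of the related lists, up to 3 called genes with the smallest p were named in each comparison of genotypes, and others given here were chosen after their values were seen. Of the genes listed, 9 symbols were not found in the files. The genes most like each gene were the 2 with the highest Pearson r of log2(CPM + 1) over 23 libraries, among 13770 genes with a mean of at least 1, and only some of them are given.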

Additional observations from a re-analysis of the deposited data

Results flagged for a closer look

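For 8 values a test of the difference itself found that the effect of an Nkapl genotype was not the same in 2 settings, each by edgeR's quasi-likelihood test with adjusted p under 0.05. Between sorted cell types, the knockout effect in spermatids minus that in spermatocytes was -0.34 on the log2 scale for Eif4g3, -0.27 for Ybx2, -0.27 for Ybx3 and -0.16 for Pabpc1, with both groups of spermatocytes taken by label. The value of Pabpc1 passed in 2 of the 8 fits that left out 1 library. Between Nkapl alleles in testis, the knockout effect minus the TGdel effect was -0.56 for Papolb, -0.47 for Ybx3, -0.41 for Cpeb2 and -0.29 for Tarbp2. Ybx3 is the gene that appears in both. The values between cell types depended on scaling, and by library totals none of them passed. Eif4g3 was then at -0.13, Ybx2 and Ybx3 at -0.06 and Pabpc1 at 0.05. The values between alleles all passed by library totals, but none passed with a replicate block, and they rest on single libraries as given above. Of these, Cpeb2 and Tarbp2 lay closest to the threshold, at adjusted p = 0.0491 and 0.0469 by edgeR's test. With 2 or 3 libraries per group, no outlier test of a single library within its group was run.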

How the results depend on the processing

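Grouped by file record, the testis fits called 0 genes each (415 for Nkapl, 1202 for Sox30 and 187 for TGdel at an unadjusted p under 0.05), and in the Nkapl set 0 of the 10 genes fell and 0 rose. The differences of effects also called 0 genes and 0 of the 10 (376 and 144 at an unadjusted p under 0.05), with Cpeb2 turned to 0.07 for Nkapl minus TGdel. With the libraries whose record and heading give the same group, genes called were 693 for Sox30 (432 as reported), 328 for TGdel (200), 145 for Nkapl minus Sox30 (501) and 123 for Nkapl minus TGdel (1997), with 0 of the 10 genes in the last. One fit of all testis libraries called 3351 of 17647 genes for Nkapl, 896 for Sox30 and 425 for TGdel. Of the 10 genes in Nkapl testis 2 fell in that fit (Papolb -0.60, Tarbp2 -0.29) and 0 rose.

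DESeq2 called 765 genes for Sox30, 576 for TGdel, 2237 for the difference between cell types (4025 as reported) and 883 for Nkapl minus Sox30, and limma-voom 80 for Sox30 and 52 for Nkapl minus Sox30. By library totals 301 genes were called for TGdel. Of the 10 genes 2 then rose and 1 fell in spermatocytes, and 7 rose and 1 fell in spermatids. In wild type 2 were called higher and 5 lower in spermatids than in spermatocytes (reversed: Ybx3 -0.26, Pabpc1 -0.01, Ddx25 -0.03). For the difference between cell types 3 passed above 0 and 0 below (reversed: Pabpc1 0.05). Without the filter 88 genes were called for TGdel, and of the 10 genes 3 rose and 1 fell in spermatocytes and 1 rose in spermatids. In spermatocytes 1 also fell with DESeq2 size factors, DESeq2 and only the 2 groups (2 rose in that last fit).

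Leaving out single libraries gave 20 to 693 genes for Sox30, 0 to 504 for TGdel (0 without TGdel 2, with 2188 at an unadjusted p under 0.05, and 1 without wild type 1), 2679 to 4449 for the difference between cell types, 42 to 2072 for Nkapl minus Sox30 and 19 to 3313 for Nkapl minus TGdel. Of the 10 genes, 0 to 1 fell in spermatocytes, 0 to 2 rose in spermatids, 1 to 5 were below 0 for the difference between cell types, 0 to 2 for Nkapl minus Sox30 and 0 to 7 for Nkapl minus TGdel. Where a group keeps 1 library, that library is assumed to vary like the others.

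The labels do not say that replicate numbers pair libraries. Same-numbered libraries deviated with correlations of 0.031 (Nkapl), 0.466 (Sox30), -0.253 (TGdel), 0.045 (spermatocytes) and -0.013 (spermatids). With the replicate block 1728 genes were called for Sox30, with Papolb (-0.32) 1 of the 10 lower, 0 for TGdel (1686 at an unadjusted p under 0.05), and 154 for Nkapl minus TGdel with 0 of the 10. Depth limits little here, since each of the 10 genes had over 30 CPM in every library.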
